A study of Mus musculus with 30 samples.

Results

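The methionine cycle and the one-carbon reactions that feed it were followed through 9 genes: Mat1a, Mat2a, Gnmt, Nnmt, Pemt, Ahcy, Bhmt, Cbs and Shmt1. The rule was a list of names, drawn up with earlier results of these data known, and all 9 of the 55450 gene entries in the deposited tables were found and passed the low-count filter in each experiment. Whole livers of male mice were sequenced in 3 experiments, with 5 mice per genotype and 30 libraries in all. Every mouse carried floxed Cebpa alleles and ate a diet high in fat, cholesterol and fructose (HFCFD). In the experiment named HFCFD2W the diet lasted 2 weeks, and Cebpa fl/fl mice without Cre were compared with Cebpa ΔHep mice, in which an albumin-driven Cre deletes the gene in hepatocytes from early life. In HFCFD8W+T10D the diet label was 8 weeks with tamoxifen over the last 10 days. In HFCFD12W+T10W, 12 weeks of diet were followed by 10 weeks of diet with tamoxifen, 22 weeks in all. Both tamoxifen experiments used Cebpa ΔHep,ERT2 mice, whose albumin-driven Cre acts only once tamoxifen is given, and Cebpa fl/fl controls with the same tamoxifen label. Diet length, tamoxifen and Cre strain differ together between HFCFD2W and the others, and diet and tamoxifen length between the tamoxifen experiments, so their effects cannot be told apart. Ages were not given in the sources used here. The albumin promoter also limits the model: Cebpa in liver cells that do not express albumin is left intact.

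The methionine cycle makes and spends S-adenosylmethionine (SAM), the donor of methyl groups in most methylation reactions. Methionine adenosyltransferases make SAM, methyltransferases pass its methyl group on and release S-adenosylhomocysteine, and Ahcy splits that product into homocysteine. Homocysteine then either regains a methyl group or leaves through transsulfuration towards cysteine and glutathione. The liver is the main site of the cycle, and adult hepatocytes are known for high Mat1a and low Mat2a. CEBPA is a transcription factor of mature hepatocytes.

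The libraries held 7996128 to 10257366 counts. Cebpa itself (chr7:35119293-35121928, plus strand) fell to 2.68% of the Cebpa fl/fl mean in HFCFD2W, to 12.1% in HFCFD8W+T10D and to 19.2% in HFCFD12W+T10W, with no overlap between genotypes. Markers of other cell types moved with genotype. In HFCFD12W+T10W, all 7 cholangiocyte markers tested were higher in knockouts (summed level in CPM, counts scaled by library size, 52.3 to 71.4 in Cebpa fl/fl and 866 to 1225 in knockout livers), and so were all 10 stellate cell or fibroblast markers (370 to 468 and 1518 to 1879 CPM). Most of the cholangiocyte sum was Spp1 (41.9 to 58.1 and 805 to 1139 CPM), and the other 6 markers summed to 10.4 to 13.8 CPM in Cebpa fl/fl and 51.1 to 85.1 CPM in knockout livers. In the same livers 7 of 10 macrophage markers were higher and 1 lower, 3 of 4 lymphocyte markers tested were higher, 2 of 9 endothelial markers were higher and 2 lower, and 6 of 10 hepatocyte markers were lower (125354 to 160447 and 83507 to 93147 CPM). Hepatocyte markers were abundant in every group. In HFCFD2W 2 hepatocyte, 2 macrophage and 1 cholangiocyte marker were higher, the last being Spp1 (26.1 to 60.2 CPM in controls and 316 to 552 CPM in knockouts). In HFCFD8W+T10D 3 of 10 hepatocyte markers were lower, while 6 macrophage, 3 stellate, 3 cholangiocyte and 1 lymphocyte marker were higher, and 1 endothelial marker was higher and 1 lower. The part these shifts play in the results that follow was not tested, and in whole liver fewer hepatocytes and less RNA per hepatocyte cannot be told apart.

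Scaling also moved with genotype. Values are CPM after TMM scaling, which assumes that most genes do not change, and the TMM factors in HFCFD12W+T10W were 0.849 to 0.916 in Cebpa fl/fl and 1.11 to 1.19 in knockout livers. Dividing by library totals alone raised the median log2 fold change of all genes there by 0.37, and in HFCFD8W+T10D by 0.18. The share of higher genes among all called genes went from 53.5% to 88.0% in HFCFD12W+T10W and from 60.0% to 84.1% in HFCFD8W+T10D. The calls made for the 9 genes within the tamoxifen experiments held under both scalings, but their sizes did not, and the within-library ratios given further on do not depend on scaling.

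The 9 genes lie on GRCm38 (mm10) at chr14:41105035-41124412 (Mat1a, plus strand), chr6:72432799-72439558 (Mat2a), chr17:46725664-46729168 (Gnmt), chr9:48591877-48605153 (Nnmt), chr11:59970614-60046489 (Pemt), chr2:155059310-155074497 (Ahcy), chr13:93616675-93637961 (Bhmt), chr17:31608894-31637238 (Cbs) and chr11:60788104-60811718 (Shmt1), the last 8 on the minus strand. Reads of 2 members could be shared with a near-identical copy. Of the 31-base words in Gm4737 transcripts, 93.2% also stand in Ahcy transcripts, and Gm4737 was credited with 8.55% as many counts as Ahcy. For Gm5096 and Bhmt these values were 85.0% and 1.59%. Shmt1 overlaps the end of Smcr8 on the other strand, which held 21.7% as many counts, and no other overlapping gene exceeded 0.738% of its member. The library kit keeps strand, but the strand setting of the counting was not given in the sources used here, so those values are uncertain to that extent.

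Promoters are shown for Cbs, which was lower in knockouts of all 3 experiments, and for Mat2a, which was higher in 2 of them. The 250 bases before each RefSeq start (GRCm38.p6, minus strand, 5′ to 3′) are at chr17:31637206-31637455 for Cbs and chr6:72439557-72439806 for Mat2a. Capitals mark the CCAAT box read on either strand.
Cbs: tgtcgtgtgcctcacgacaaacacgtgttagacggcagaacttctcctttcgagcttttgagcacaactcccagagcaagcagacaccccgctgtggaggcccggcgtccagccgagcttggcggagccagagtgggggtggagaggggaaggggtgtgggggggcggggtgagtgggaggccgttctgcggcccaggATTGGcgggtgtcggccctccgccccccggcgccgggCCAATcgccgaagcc
Mat2a: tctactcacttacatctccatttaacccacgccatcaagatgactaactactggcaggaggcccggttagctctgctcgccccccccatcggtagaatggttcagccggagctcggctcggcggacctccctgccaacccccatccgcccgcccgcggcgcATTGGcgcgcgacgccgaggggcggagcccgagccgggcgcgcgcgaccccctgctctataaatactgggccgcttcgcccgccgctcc
Promoter entries matched 7 of the 9 genes, not Mat1a and Nnmt. The C/EBP-like word TTGCNNAA, searched on both strands, was in none of the 8 entries of these 7 genes, while 9.56% of all 32851 promoter entries of that length hold it. CCAAT stood in at least 1 entry of all 7 genes but not in the Pemt entry at chr11:60037006-60037255. By entries, not genes, it stood in 33.8% of all. Such matches describe letters in this window and say nothing of binding.

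In TPM, counts corrected for transcript length and scaled to a fixed total per library, Bhmt was the most abundant of the 9 genes in every group except Cebpa fl/fl livers of HFCFD12W+T10W, where Mat1a (1669 ± 222 TPM, SD, n = 5) and Bhmt (1651 ± 668) overlapped. In Cebpa fl/fl livers of HFCFD2W Bhmt stood at 1786 ± 195 TPM, Gnmt at 1204 ± 193, Mat1a at 838 ± 136 and Ahcy at 819 ± 71.8. Pemt (249.3 ± 11.9 TPM), Cbs (203 ± 20.7), Shmt1 (77.2 ± 4.52) and Nnmt (60.2 ± 16.1) were lower, and Mat2a was lowest at 25.2 ± 5.98. Ranked by mean TPM among all genes, Bhmt was number 68 and Mat2a number 2326 in that group. Together the 9 genes made up a median 0.538% of all TPM in controls and 0.569% in knockouts of HFCFD2W. The medians were 0.530% and 0.499% for HFCFD8W+T10D livers. Controls of HFCFD12W+T10W had 0.611% and knockouts 0.421%.

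**Figure D1:**
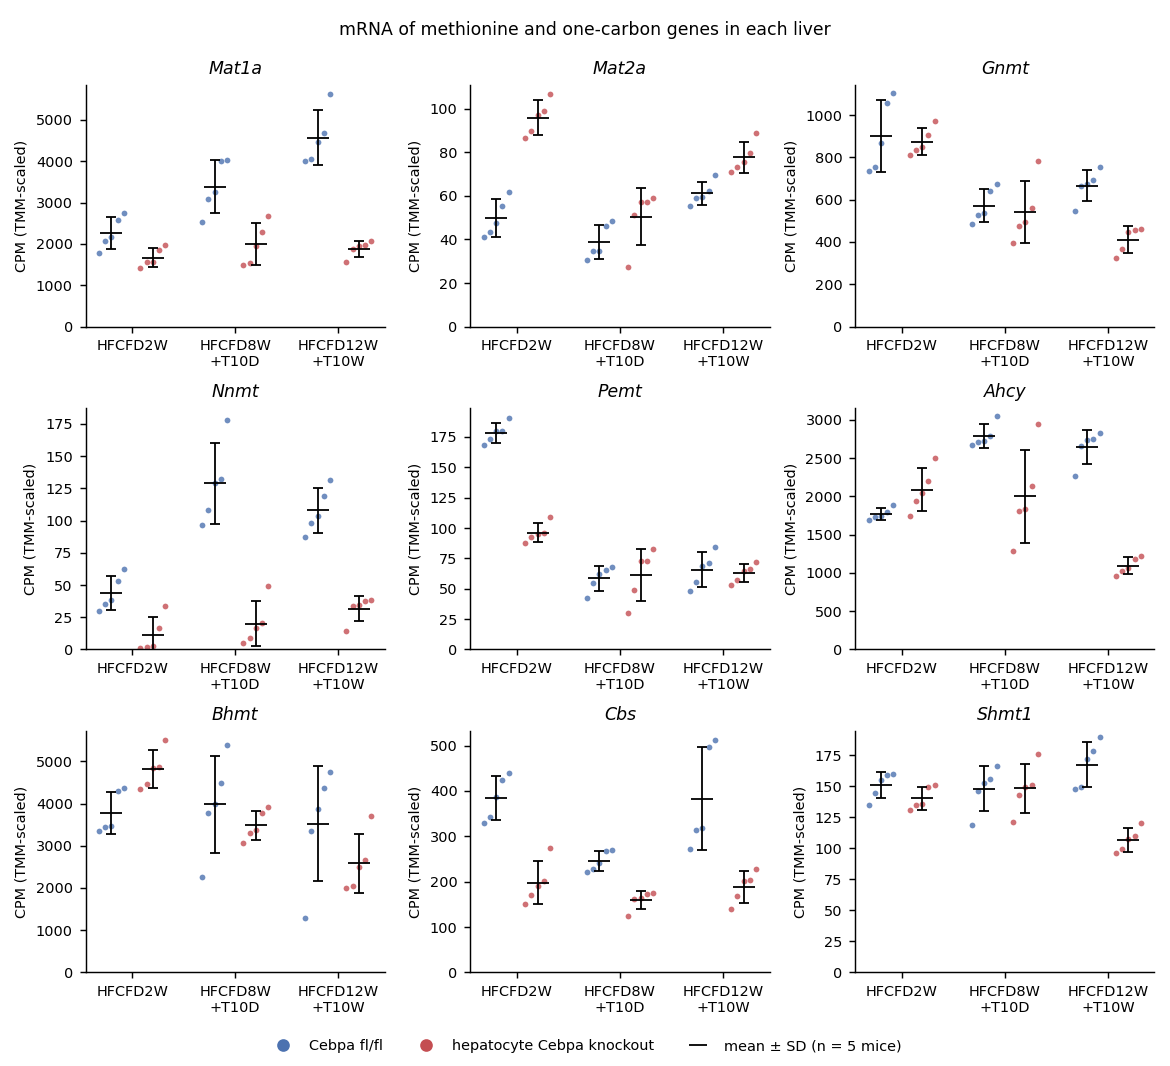
Level of each of the 9 genes in every liver, in CPM after TMM scaling within each experiment; points are mice, bars the mean ± SD of 5 mice, blue Cebpa fl/fl and red hepatocyte Cebpa knockout. Cbs points of the genotypes do not overlap in any experiment, and Ahcy points separate only in HFCFD12W+T10W.

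Mat1a encodes the adult liver form of methionine adenosyltransferase. It was lower in knockout livers of all 3 experiments. In HFCFD12W+T10W the Cebpa fl/fl livers held 4476, 4044, 5630, 3996 and 4696 CPM and the knockouts 1562, 1888, 2070, 1977 and 1941 CPM. Every knockout was below every control, at 41.3% of the control mean (log2 fold change -1.28 ± 0.12, SE; adjusted p = 2.73e-06, edgeR quasi-likelihood test adjusted over all genes). By library totals alone the HFCFD12W+T10W change was -0.90 (edgeR adjusted p = 2.06e-05). The HFCFD8W+T10D controls held 3261, 4031, 2532, 3087 and 4009 CPM and the knockouts 2687, 1482, 1951, 2293 and 1545 CPM. The highest knockout lay above the lowest control, and the change was -0.76 ± 0.20 (edgeR adjusted p = 0.0217). In HFCFD2W the controls held 2071, 2569, 2166, 1791 and 2743 CPM and the knockouts 1411, 1559, 1559, 1970 and 1843 CPM. The ranges overlapped and the change was -0.44 ± 0.13 (edgeR adjusted p = 0.0322). That call was lost without Cebpa fl/fl replicate 2 or 5 or knockout replicate 2, 3 or 4 (edgeR adjusted p = 0.0623 to 0.0815), with limma on the authors' CPM (adjusted p = 0.0505) and in a joint edgeR fit of all libraries (adjusted p = 0.0584), and the HFCFD8W+T10D call without Cebpa fl/fl replicate 2 or 5 or knockout replicate 3 (0.0508 to 0.0542).

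Mat2a, the form of other tissues and of dividing cells, went the other way. In HFCFD2W the controls held 43.5, 41.1, 61.9, 55.2 and 47.4 CPM and the knockouts 107, 86.4, 89.8, 97.1 and 98.8 CPM. All knockouts were above all controls, 1.92-fold by the means (log2 fold change 0.94 ± 0.11, edgeR adjusted p = 0.000107). In HFCFD12W+T10W the controls held 69.5, 59.1, 62.3, 55.4 and 59.5 CPM and the knockouts 79.7, 75.6, 73.3, 71.0 and 88.9 CPM. The groups again did not overlap, with a rise of 0.35 ± 0.08 (edgeR adjusted p = 0.00311). By library totals alone this rise was 0.72 (edgeR adjusted p = 2.55e-05), and a joint fit of all libraries gave 0.30 without a call (edgeR adjusted p = 0.084). The controls of HFCFD8W+T10D held 34.8, 34.5, 30.8, 46.0 and 48.4 CPM and the knockouts 57.3, 57.1, 51.4, 27.5 and 58.9 CPM. In 4 of 5 knockouts the level exceeded every control but replicate 4 lay below them all, and the difference of 0.37 ± 0.19 did not pass (edgeR adjusted p = 0.213). Without that mouse it was 0.52 (edgeR adjusted p = 0.0173).

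The ratio of Mat1a to Mat2a within each library needs no scaling between libraries. On the log2 count scale the knockout minus control difference was -1.39 in HFCFD2W, where controls ranged from 5.02 to 5.97 and knockouts from 3.72 to 4.34. It was -1.61 in HFCFD12W+T10W (6.01 to 6.50 and 4.29 to 4.82). Neither pair of ranges overlapped, and both gave p = 0.00794 in a two-sided exact permutation test of 5 against 5 mice, the smallest value possible (adjusted over 6 ratio tests, 0.0159). In HFCFD8W+T10D the ranges overlapped (6.07 to 6.86 and 4.70 to 6.38), and the difference was -1.13 (exact permutation p = 0.0317, adjusted 0.0476). Without any 1 of 6 of these 10 mice (Cebpa fl/fl replicates 1 and 2 and knockout replicates 1, 2, 3 and 5) the difference was -1.18 to -0.97 with an exact permutation p = 0.0635. Per length, the geometric mean TPM ratio went from 33.5 to 13.04 in HFCFD2W, from 62.7 to 29.6 in HFCFD8W+T10D and from 60.6 to 18.7 in HFCFD12W+T10W. Mat1a was the more abundant of the pair in every group.

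**Figure D2:**
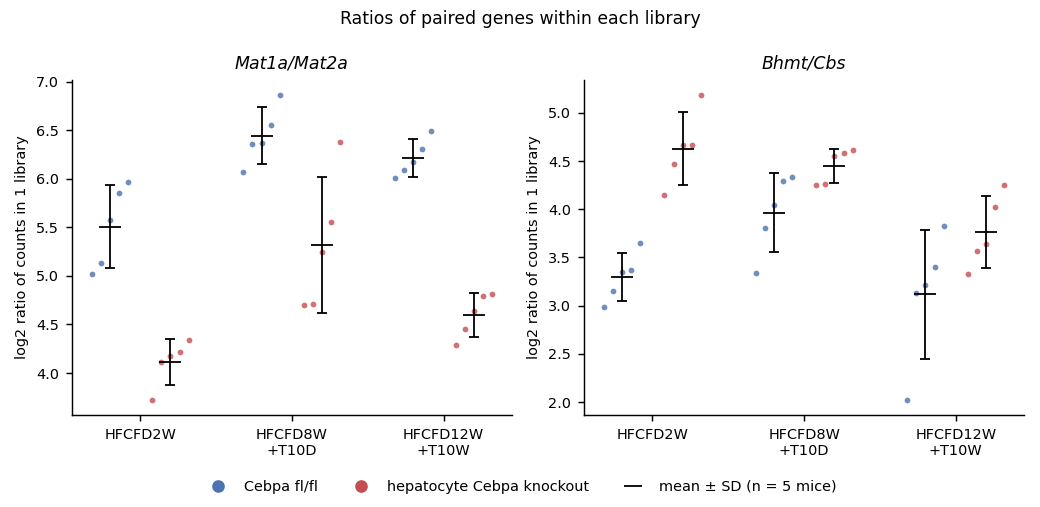
Log2 ratio of the counts of Mat1a over Mat2a (left) and of Bhmt over Cbs (right) within each library; points are mice and bars the mean ± SD of 5 mice per genotype. Mat1a/Mat2a ranges separate in HFCFD2W and HFCFD12W+T10W, and Bhmt/Cbs ranges only in HFCFD2W.

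The 3 methyltransferases behaved differently from each other. Nnmt, which methylates nicotinamide with SAM, was lower in knockouts of all 3 experiments and had the largest decrease of the 9 genes in each. Controls of HFCFD8W+T10D held 96.4, 178, 108, 129 and 132 CPM and the knockouts 49.2, 20.6, 16.7, 8.63 and 5.29 CPM. The knockout mean was 15.6% of the control mean (log2 fold change -2.67 ± 0.45, edgeR adjusted p = 0.0019), and the knockouts spread over a wide range below all controls. In HFCFD12W+T10W the controls held 87.3, 119, 98.2, 132 and 103 CPM and the knockouts 14.2, 38.1, 37.3, 34.7 and 34.0 CPM. The groups did not overlap and the change was -1.77 ± 0.22 (edgeR adjusted p = 2.57e-05). In HFCFD2W the controls held 52.8, 38.4, 30.2, 35.1 and 62.1 CPM and the knockouts 16.3, 34.1, 2.38, 1.54 and 2.17 CPM. In 3 of 5 knockouts the level was under 3 CPM, and 1 stood inside the control range. The change of -1.91 ± 0.61 passed narrowly (edgeR adjusted p = 0.0495). It failed on leaving out any 1 mouse except knockout replicate 3 (edgeR adjusted p = 0.0611 to 0.106). Without that mouse the change was -2.92 (edgeR adjusted p = 0.0033). With all mice it also failed in DESeq2 (adjusted p = 0.105), in the robust edgeR fit (0.134) and by library totals alone (0.0615).

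Pemt makes phosphatidylcholine from phosphatidylethanolamine with methyl groups from SAM. It was lower only in HFCFD2W among the 3 tests. There the controls held 180, 191, 168, 173 and 180 CPM and the knockouts 95.3, 87.7, 109, 96.0 and 92.8 CPM. The groups were far apart, at 54.0% of the control mean (log2 fold change -0.89 ± 0.07, edgeR adjusted p = 7.19e-06). In the tamoxifen experiments both genotypes were lower than either genotype of HFCFD2W. Controls ranged from 42.3 to 67.5 CPM and knockouts from 30.3 to 82.4 CPM in HFCFD8W+T10D (change 0.07 ± 0.23, edgeR adjusted p = 0.870). In HFCFD12W+T10W these ranges were 48.2 to 84.6 and 53.3 to 72.1 CPM (change -0.06 ± 0.14, edgeR adjusted p = 0.729, and 0.31 by library totals alone).

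Gnmt, which methylates glycine and so disposes of excess SAM, passed only in HFCFD12W+T10W. There the controls held 756, 692, 676, 664 and 548 CPM and the knockouts 448, 367, 455, 463 and 325 CPM. All knockouts lay below all controls, with a change of -0.70 ± 0.12 (edgeR adjusted p = 0.000305). By library totals alone the change was -0.33 (edgeR adjusted p = 0.0141), and in TPM the groups overlapped (873 ± 99.4 against 694 ± 89.9). Controls and knockouts ranged over 733 to 1102 and 813 to 973 CPM in HFCFD2W (change -0.05 ± 0.12) and over 485 to 673 and 396 to 782 CPM in HFCFD8W+T10D (change -0.08 ± 0.18, and 0.08 by library totals alone), with edgeR adjusted p = 0.833 and 0.804.

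Ahcy, the hydrolase that removes S-adenosylhomocysteine, took a different course in each experiment. In HFCFD12W+T10W the controls held 2656, 2270, 2833, 2747 and 2732 CPM and the knockouts 1064, 964, 1227, 1187 and 1023 CPM. The knockouts were at 41.3% of the control mean, with no overlap (log2 fold change -1.28 ± 0.10, edgeR adjusted p = 7.15e-07). By library totals alone the HFCFD12W+T10W change was -0.90 (edgeR adjusted p = 1.76e-06). Among HFCFD8W+T10D livers the controls held 2791, 3049, 2671, 2715 and 2717 CPM and the knockouts 1802, 1290, 1833, 2941 and 2138 CPM. In 4 of 5 knockouts the level lay below every control and in replicate 4 above 4 of them, and the change of -0.48 ± 0.20 did not pass (edgeR adjusted p = 0.113). Without knockout replicate 4 it was -0.67 (edgeR adjusted p = 0.0119), and with all mice the joint edgeR fit called it at -0.49 (adjusted p = 0.00872). That mouse also had the highest Gnmt and the lowest Mat2a of its group. In HFCFD2W the controls held 1686, 1887, 1794, 1745 and 1733 CPM and the knockouts 1943, 1750, 2047, 2201 and 2496 CPM. In 4 of 5 knockouts the level was above every control, but 0.24 ± 0.10 did not pass (edgeR adjusted p = 0.104) except without knockout replicate 3 (0.30, edgeR adjusted p = 0.0428).

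At homocysteine the pathway branches. Cbs, which starts transsulfuration, was lower in knockouts of all 3 experiments, and in TMM-scaled CPM the genotypes did not overlap in any. The controls held 387, 423, 328, 343 and 439 CPM and the knockouts 275, 202, 191, 151 and 171 CPM in HFCFD2W. In HFCFD8W+T10D the values were 241, 270, 222, 228 and 268 against 173, 175, 125, 164 and 161 CPM. In HFCFD12W+T10W they were 498, 513, 318, 315 and 273 against 228, 168, 204, 201 and 140 CPM. The knockout means were 51.5%, 64.9% and 49.1% of the control means. The log2 fold changes were -0.96 ± 0.14, -0.62 ± 0.11 and -1.03 ± 0.19 (edgeR adjusted p = 0.000763, 0.0034 and 0.000615). By library totals alone the change was -0.43 in HFCFD8W+T10D (edgeR adjusted p = 0.0419) and -0.67 in HFCFD12W+T10W (edgeR adjusted p = 0.00744). In TPM the genotypes separated only in HFCFD2W. Controls and knockouts overlapped in HFCFD8W+T10D (118 to 146 and 67.15 to 132 TPM) and in HFCFD12W+T10W (143 to 284 and 100 to 147 TPM). The Cbs calls were the only ones among the 9 genes that held in all 3 experiments under every fit tried and without any 1 mouse.

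Bhmt remethylates homocysteine with betaine. It was higher in knockouts of HFCFD2W, where the controls held 3444, 4369, 3340, 4294 and 3478 CPM and the knockouts 4875, 4475, 4848, 5511 and 4358 CPM. The lowest knockout fell just under the highest control (log2 fold change 0.35 ± 0.10, edgeR adjusted p = 0.0385). That call was lost without Cebpa fl/fl replicate 1, 3 or 5 or knockout replicate 2, 4 or 5 (edgeR adjusted p = 0.0616 to 0.0998), with limma (adjusted p = 0.0934) and in the joint edgeR fit (adjusted p = 0.363). In HFCFD12W+T10W the controls held 4367, 4750, 3349, 1279 and 3876 CPM and the knockouts 3710, 1992, 2049, 2503 and 2664 CPM. The lowest value of all belonged to a control, and -0.45 ± 0.29 did not pass (edgeR adjusted p = 0.215). Without that mouse, Cebpa fl/fl replicate 4, the change was -0.68 (edgeR adjusted p = 0.007). In HFCFD8W+T10D controls ranged from 2251 to 5396 CPM and knockouts from 3058 to 3909 CPM (change -0.19 ± 0.21, edgeR adjusted p = 0.585).

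The log2 ratio of Bhmt to Cbs counts within a library was higher in knockouts of HFCFD2W by 1.33, from 2.99 to 3.65 in controls and 4.15 to 5.19 in knockouts. The ranges did not overlap (two-sided exact permutation p = 0.00794, adjusted 0.0159). The difference was 0.49 in HFCFD8W+T10D (exact permutation p = 0.0476, adjusted 0.0571) and 0.64 in HFCFD12W+T10W (exact permutation p = 0.0873, adjusted 0.0873), with overlap in both. With 1 mouse left out, the HFCFD8W+T10D difference kept an exact permutation p under 0.05 in only 4 of 10 runs. The HFCFD12W+T10W difference stayed without one in 9 of 10 runs. In the run without Cebpa fl/fl replicate 5 it was 0.82 (exact permutation p = 0.0317, not adjusted). Shmt1, the cytosolic hydroxymethyltransferase that passes a one-carbon unit from serine to folate, was lower only in HFCFD12W+T10W. There the controls held 190, 179, 172, 149 and 148 CPM and the knockouts 121, 110, 99.6, 107 and 95.8 CPM. The groups did not overlap (change -0.65 ± 0.09, edgeR adjusted p = 6.71e-05, and -0.28 with adjusted p = 0.0142 by library totals alone), but in TPM they did (84.4 ± 12.6 against 72.6 ± 9.81). Controls and knockouts ranged over 135 to 160 and 131 to 151 CPM in HFCFD2W and over 119 to 166 and 121 to 176 CPM in HFCFD8W+T10D, with changes of -0.10 ± 0.07 and 0.003 ± 0.12 (edgeR adjusted p = 0.353 and 0.991).

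**Figure D3:**
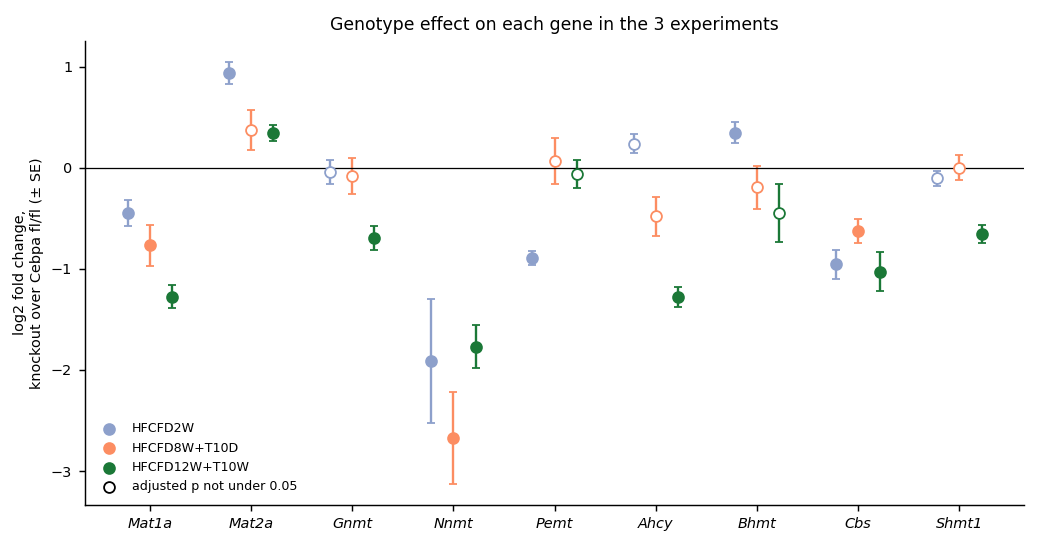
Log2 fold change of knockout over Cebpa fl/fl livers for each gene, with its SE, in the 3 experiments (n = 5 mice per genotype); filled circles passed an adjusted p of 0.05 in edgeR and open circles did not. Mat1a, Cbs and Nnmt are filled below 0 in all 3 experiments, and Mat2a is filled above 0 in HFCFD2W and HFCFD12W+T10W.

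In HFCFD2W 2 of the 9 genes were higher (8.60% of the 11068 genes tested were) and 4 were lower (8.09%). In HFCFD8W+T10D 0 were higher (10.3% of 11990 genes) and 3 lower (6.85%). At an unadjusted p under 0.05 in edgeR 0 were higher there as well, as in DESeq2 and limma. In HFCFD12W+T10W 1 was higher (27.4% of 12463 genes) and 6 lower (23.8%). With a fold change over 2 also asked for, 1, 1 and 4 of the 9 genes passed in these experiments, beside 3.07%, 6.10% and 17.7% of all genes. Of those 4 in HFCFD12W+T10W, Nnmt stayed over a fold of 2 by library totals alone (log2 fold change -1.39). Ahcy (-0.90), Mat1a (-0.90) and Cbs (-0.67) did not. In TMM-scaled CPM the genotypes did not overlap for 3, 2 and 7 of the 9 genes, beside 12.5%, 11.6% and 37.8% of all genes. The median log2 fold change of the 9 genes was -0.10, -0.19 and -0.70, and that of all genes was 0.0073, 0.011 and 0.013. With each experiment fitted by itself, Mat1a, Cbs and Nnmt were the 3 genes called lower in every experiment, beside 1.95% of the 10950 genes tested in all 3, and only Cbs kept all its calls under every fit. The Ahcy, Gnmt and Shmt1 decreases were called in HFCFD12W+T10W alone in these fits, and Ahcy in HFCFD8W+T10D as well in the joint fit.

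Whether the genotype effect differed between experiments was tested in a joint edgeR fit of the 6 groups, in which the contrasts share libraries. Between HFCFD8W+T10D and HFCFD2W the effect differed for 2 of the 9 genes (11.2% of all genes), Pemt by 0.95 ± 0.25 (adjusted p = 0.0126) and Ahcy by -0.73 ± 0.20 (adjusted p = 0.0141). Between HFCFD12W+T10W and HFCFD8W+T10D it differed for 3 genes (10.5% of all genes), Ahcy by -0.83 ± 0.20 (adjusted p = 0.00781), Shmt1 by -0.68 ± 0.14 (adjusted p = 0.00231) and Gnmt by -0.65 ± 0.21 (adjusted p = 0.0464). The Gnmt difference did not pass on leaving out any of 18 of the 30 mice (adjusted p = 0.0502 to 0.119), with no low-count filter (0.0685), with upper quartile (0.0872) or RLE scaling (0.0575) or by library totals alone (0.143). Between HFCFD12W+T10W and HFCFD2W it differed for 6 genes (30.7% of all genes). Ahcy differed most, by -1.56 ± 0.20 (adjusted p = 2.24e-06), and Pemt by 0.78 ± 0.25 (adjusted p = 0.0172). The others were Mat1a (-0.87 ± 0.22), Gnmt (-0.69 ± 0.21), Mat2a (-0.64 ± 0.21) and Shmt1 (-0.59 ± 0.14), with adjusted p between 0.00181 and 0.0196. By library totals alone, which moved the median of all genes by 0.39 in this contrast, Ahcy and Pemt passed and those 4 did not (adjusted p = 0.054 to 0.477). For Cbs and Nnmt no difference between experiments passed in any of the 3 contrasts.

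Levels of the 9 genes also differed among the Cebpa fl/fl livers alone. Between HFCFD8W+T10D and HFCFD2W, 7 of the 9 genes differed, beside 43.6% of all genes. In HFCFD8W+T10D Pemt was lower (log2 difference -1.88 ± 0.18, edgeR adjusted p = 7.64e-09), as were Gnmt (-0.93 ± 0.15), Cbs (-0.91 ± 0.17), Mat2a (-0.63 ± 0.15) and Shmt1 (-0.30 ± 0.10). Nnmt was higher by 1.29 ± 0.49 (edgeR adjusted p = 0.0337) and Ahcy by 0.39 ± 0.14 (edgeR adjusted p = 0.0244). Mat2a and Shmt1 did not pass by library totals alone (-0.43 and -0.11, edgeR adjusted p = 0.0647 and 0.345), while Mat1a did (0.50, edgeR adjusted p = 0.00503, against 0.31 and 0.113 with TMM scaling). The Nnmt call failed without any 1 of 4 mice, the Ahcy call without any 1 of 2, and the Shmt1 call without HFCFD8W+T10D Cebpa fl/fl replicate 5 (edgeR adjusted p = 0.0644 to 0.0751, 0.0523 to 0.0562 and 0.0857). Between HFCFD12W+T10W and HFCFD8W+T10D 2 of the 9 differed (11.4% of all genes), Mat2a by 0.51 ± 0.15 and Cbs by 0.50 ± 0.17 (edgeR adjusted p = 0.0238 and 0.0463). Neither is firm, since they were lost without any 1 of 4 and of 17 mice. In the order of the 6 group means on 1 joint scale, most neighbouring groups overlapped. The exceptions for Pemt were the 2 steps from HFCFD2W Cebpa fl/fl livers (210 CPM) to HFCFD2W knockouts (113 CPM) and from these to HFCFD8W+T10D knockouts (59.5 CPM). For Ahcy and Shmt1 the HFCFD12W+T10W knockouts (940 and 91.6 CPM) stood below all other groups. For Mat2a the HFCFD2W knockouts (113 CPM) stood above the next group, the HFCFD12W+T10W knockouts (66.8 CPM). Both HFCFD2W groups stood above all others for Gnmt, with 1029 CPM in the knockouts and 591 CPM in the next group, HFCFD12W+T10W Cebpa fl/fl livers. Nnmt groups separated at the 2 steps from HFCFD12W+T10W Cebpa fl/fl livers (95.5 CPM) to HFCFD2W Cebpa fl/fl livers (51.5 CPM) and on to HFCFD12W+T10W knockouts (27.2 CPM).

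Of 92 further genes of the pathway, sorted into 9 roles, 11 were higher and 9 lower among 88 tested in HFCFD2W, with 6 and 9 among 90 for HFCFD8W+T10D livers, then 11 and 45 among 91 for HFCFD12W+T10W livers. Their median log2 fold changes were 0.0066, -0.025 and -0.26. Among all genes tested in HFCFD2W, 8.60% were called higher and 8.09% lower. Those shares were 10.3% and 6.85% of HFCFD8W+T10D genes, against 27.4% and 23.8% of HFCFD12W+T10W genes. Whether the counts of the 92 genes, or those by role given below, exceed these shares was not tested. The HFCFD12W+T10W count of the 92 genes depends on scaling. By library totals alone 33 were higher and 21 lower there, beside 7049 higher and 962 lower of all 12463 genes tested. In HFCFD8W+T10D 17 were higher and 8 lower by library totals alone, beside 2023 and 382 of all 11990 genes tested. Across the experiments, 4 of the 92 were called lower in all 3, 0 higher in all 3, and 3 in mixed directions (Ftcd, Hnmt and Slc25a32). The 4 were Chpt1, Etnk2, Cdo1 and Cth. Of all genes tested in all 3 experiments, 1.95% were called lower and 1.69% higher in each. Among the named genes, the joint fit lost the HFCFD2W calls of Dld, Cth, Ethe1, Tpmt and Folr2 (edgeR adjusted p = 0.0538, 0.0568, 0.0723, 0.143 and 0.18). It also lost the HFCFD12W+T10W call of Sms (edgeR adjusted p = 0.101). Calls of 10 of the named pathway genes were lost on leaving out 1 mouse of the 10 in their experiment. In HFCFD2W these were Dld (8 of the 10 mice), Ethe1, As3mt and Folr2 (5 each), Tpmt (4) and Etnk1 (2). The others were Aox1 (7), Qprt (6) and Ftcd (4) in HFCFD8W+T10D and Sms (8) in HFCFD12W+T10W. By role and direction 17 counts were 0 in edgeR. In each of them at most 1 gene had an unadjusted p under 0.05 in edgeR, and DESeq2 and limma called 1 gene each over all 17.

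**Figure D4:**
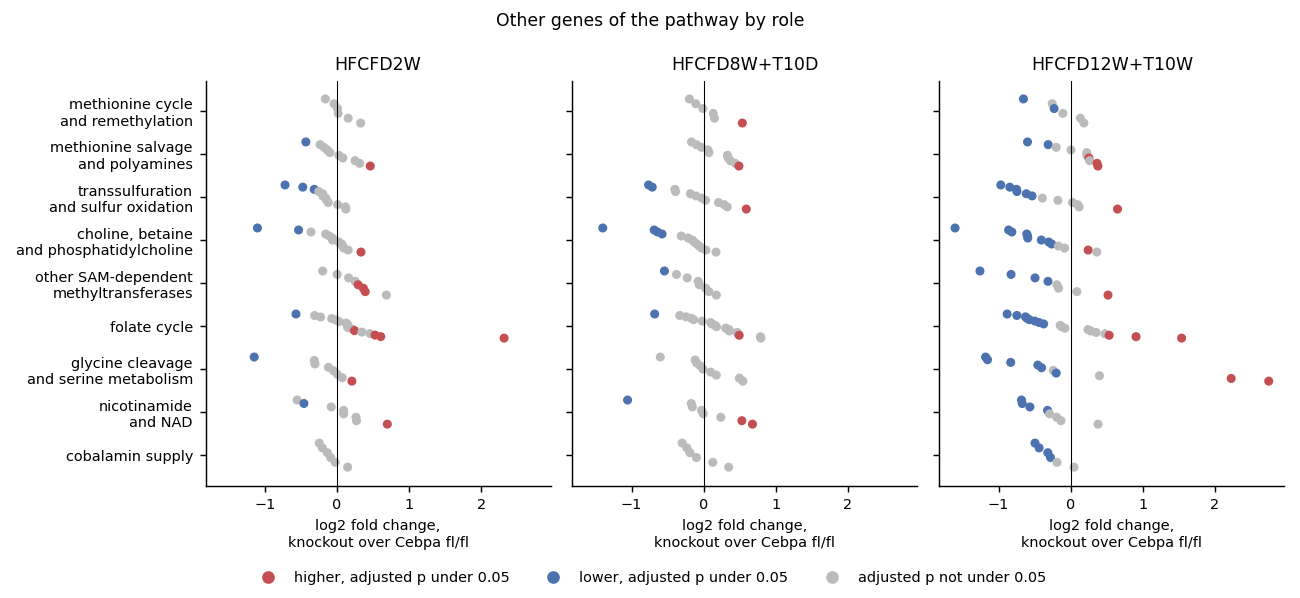
Log2 fold change of knockout over Cebpa fl/fl livers for the other pathway genes that passed the low-count filter, 1 point per gene, sorted into 9 roles; red and blue points passed an adjusted p of 0.05 in edgeR with TMM scaling and grey points did not. In HFCFD12W+T10W 45 points are blue and 11 red, beside 23.8% lower and 27.4% higher of all genes tested. By library totals alone 21 pathway genes were lower and 33 higher, beside 962 and 7049 of all 12463 genes tested.

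In transsulfuration and sulfur oxidation, downstream of Cbs, 3 of 12 genes were lower and 0 higher in HFCFD2W, with 2 and 1 for HFCFD8W+T10D livers, then 6 and 1 for HFCFD12W+T10W livers. Cdo1, which oxidises cysteine, went from 962 to 584 CPM, from 1202 to 733 CPM and from 1566 to 800 CPM (log2 fold changes -0.72, -0.71 and -0.97). Cth, the enzyme after Cbs, went from 174 to 140, from 210 to 124 and from 225 to 126 CPM (-0.31, -0.77 and -0.84). Ethe1, which oxidises sulfide products, was lower in HFCFD2W (-0.47 ± 0.13) and Suox, which oxidises sulfite, in HFCFD12W+T10W (-0.75 ± 0.14). Gss, which completes glutathione synthesis, was higher in HFCFD8W+T10D at 93.3 against 62.1 CPM (0.59 ± 0.11).

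In the role of choline, betaine and phosphatidylcholine, 2 of 13 genes were lower and 1 higher in HFCFD2W, with 4 and 0 for HFCFD8W+T10D livers, then 9 and 1 for HFCFD12W+T10W livers. Chpt1, which makes phosphatidylcholine from CDP-choline, went from 216 ± 9.97 to 101 ± 11.7 CPM in HFCFD2W (log2 fold change -1.10, edgeR adjusted p = 5.54e-06), from 249.4 ± 43.9 to 94.6 ± 20.04 CPM in HFCFD8W+T10D (-1.40, edgeR adjusted p = 0.000174) and from 294 ± 30.2 to 96.6 ± 6.82 CPM in HFCFD12W+T10W (-1.60, edgeR adjusted p = 5.61e-08). Its genotypes did not overlap in any experiment. Etnk2, an ethanolamine kinase, was lower in each (log2 fold changes -0.53, -0.69 and -0.60), and its relative Etnk1 was higher in HFCFD2W (0.33 ± 0.09). Chkb, a choline kinase, was lower in HFCFD8W+T10D (-0.64 ± 0.16, not called by library totals alone) and in HFCFD12W+T10W (-0.86 ± 0.15). Dmgdh, which demethylates the dimethylglycine left by Bhmt, was lower in HFCFD12W+T10W at 359 against 632 CPM (-0.82 ± 0.12).

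Among the 6 other genes of the methionine cycle, Mtr, the cobalamin-dependent methionine synthase, was higher in HFCFD8W+T10D (13.4 against 9.29 CPM, log2 fold change 0.53 ± 0.13) and 0 genes were called in HFCFD2W. In HFCFD12W+T10W Bhmt2 was lower (131 against 207 CPM, -0.66 ± 0.08), as was Ahcyl1 (-0.23), which by library totals alone was at 0.14 without a call. In methionine salvage and polyamines, 1 of 10 genes was higher and 1 lower in HFCFD2W, with 1 and 0 for HFCFD8W+T10D livers, then 3 and 2 for HFCFD12W+T10W livers. Odc1, the first enzyme of polyamine synthesis, was higher in HFCFD2W (0.46 ± 0.11) and the salvage gene Apip lower (-0.43 ± 0.10). Sat1, which acetylates polyamines, was higher in HFCFD8W+T10D (0.49 ± 0.11) and HFCFD12W+T10W (0.36 ± 0.10). In HFCFD12W+T10W Sms, spermine synthase, was higher (0.38 ± 0.14) and the salvage gene Adi1 lower (-0.60 ± 0.09).

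Of 8 other SAM-dependent methyltransferases, 3 were higher and 0 lower in HFCFD2W, with 0 and 1 for HFCFD8W+T10D livers, then 1 and 4 for HFCFD12W+T10W livers. Inmt, which methylates indolamines, was at 475 ± 87.4 against 1136 ± 161 CPM in HFCFD12W+T10W (log2 fold change -1.26 ± 0.14, edgeR adjusted p = 1.36e-05). Hnmt, histamine methyltransferase, was higher in HFCFD2W (0.37 ± 0.09) and lower in the tamoxifen experiments (-0.55 ± 0.12 and -0.83 ± 0.10). Prmt1, an arginine methyltransferase, was higher in HFCFD12W+T10W (0.52 ± 0.09), and As3mt (0.39 ± 0.11) and Tpmt (0.29 ± 0.08) were higher in HFCFD2W.

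In the folate cycle, 4 of 17 genes tested were higher and 1 lower in HFCFD2W, with 1 and 1 of 18 for HFCFD8W+T10D livers, then 3 and 8 of 18 for HFCFD12W+T10W livers. Mthfd2, a mitochondrial dehydrogenase of folate low in adult liver, was at 3.06 ± 1.48 against 0.615 ± 0.420 CPM in HFCFD2W (log2 fold change 2.32 ± 0.44) and 3.84 ± 1.06 against 1.31 ± 0.931 CPM in HFCFD12W+T10W (1.54 ± 0.38). Mthfd1l, which acts in the same compartment, was higher in HFCFD12W+T10W (0.91 ± 0.18). Slc25a32, the mitochondrial folate carrier, was higher in HFCFD2W (0.53) and lower in the tamoxifen experiments (-0.68 ± 0.16 and -0.88 ± 0.11). Ftcd, which joins histidine breakdown to folate, was higher in HFCFD2W (0.24) and HFCFD8W+T10D (0.49 ± 0.14) and lower in HFCFD12W+T10W (-0.44). The folate receptor gene Folr2 was higher (0.61 ± 0.17) and the folate carrier gene Slc19a1 lower (-0.57 ± 0.14) in HFCFD2W.

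In glycine cleavage and serine metabolism, 1 gene was higher and 1 lower of 8 tested in HFCFD2W, with 0 and 0 of 9 for HFCFD8W+T10D livers, then 2 and 6 of 10 for HFCFD12W+T10W livers. Gldc, which cleaves glycine, was at 33.1 ± 13.8 against 73.5 ± 10.46 CPM in HFCFD2W (log2 fold change -1.15 ± 0.21) and 18.1 ± 6.62 against 40.9 ± 14.97 CPM in HFCFD12W+T10W (-1.18 ± 0.29). Both serine synthesis genes called in HFCFD12W+T10W were higher. Phgdh was at 1.94 ± 0.728 against 0.285 ± 0.323 CPM (2.74 ± 0.57) and Psat1 at 3.13 ± 0.861 against 0.658 ± 0.160 CPM (2.22 ± 0.27). Dld, a subunit shared with other dehydrogenases, was higher in HFCFD2W (0.21 ± 0.07).

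Of 8 genes of nicotinamide and NAD, next to Nnmt, 1 was higher and 1 lower in HFCFD2W, with 2 and 1 for HFCFD8W+T10D livers, then 0 and 4 for HFCFD12W+T10W livers. Nampt, which recycles nicotinamide, was higher in HFCFD2W (log2 fold change 0.70 ± 0.15). Naprt, which uses nicotinic acid, was lower in HFCFD2W (-0.46 ± 0.08) and HFCFD12W+T10W (-0.67 ± 0.06). Aox3, an aldehyde oxidase, was lower in HFCFD8W+T10D (118 against 246 CPM, -1.06 ± 0.18) and HFCFD12W+T10W (-0.57 ± 0.18, and -0.20 without a call by library totals alone). In HFCFD8W+T10D Aox1 (0.67 ± 0.20) and Qprt (0.53 ± 0.15) were higher. In HFCFD12W+T10W Nmrk1 was lower (-0.68 ± 0.16, and -0.31 without a call by library totals alone). Of 6 genes listed under cobalamin supply or use 4 were called lower in HFCFD12W+T10W and 0 higher. Among the lower were Mut (-0.50 ± 0.08), Lmbrd1 (-0.44 ± 0.08) and Mmadhc (-0.32 ± 0.06). None of these 3 was called by library totals alone (-0.13, -0.07 and 0.05).

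Genes most like each member were named by Pearson correlation of log2 CPM over the 30 libraries among 12964 genes, as a description, since the libraries share genotype and experiment. They were Mmd for Mat1a (r = 0.895), Clint1 for Mat2a (0.876), Lap3 for Gnmt (0.969), Gm5096 for Bhmt (0.978), Gm4737 for Ahcy (0.978), Necab1 for Cbs (0.924), Srebf1 for Pemt (0.916), Slc3a1 for Nnmt (0.941) and Txn2 for Shmt1 (0.945). For Bhmt and Ahcy these are the near-identical copies named earlier, with which reads may be shared. After group means were subtracted the top genes were Gm32468 for Mat1a (0.730), Zfp966 for Mat2a (0.831), Dpyd for Gnmt (0.845), Gm5096 for Bhmt (0.954), Ces2a for Ahcy (0.890), BC004004 for Cbs (0.773), H2-Ke6 for Pemt (0.814), Orm1 for Nnmt (0.905) and Pex11g for Shmt1 (0.805). Only Gm5096 topped both lists. Between members within groups, Gnmt and Ahcy had the highest correlation of all pairs (r = 0.692) and Mat2a and Ahcy the lowest (-0.489). In CPM, HFCFD8W+T10D knockout replicate 4 had the highest Ahcy and Gnmt and the lowest Mat2a of its group. In TPM replicate 5 was above it for Ahcy (1257 against 1163) and Gnmt (950 against 902). The part of that mouse and of scaling in these 2 correlations was not tested.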

How the data were processed

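RNA was extracted from whole liver, made into stranded, poly-A selected libraries and sequenced. Per the submitters' processing notes, Trimmomatic 0.36, STAR 2.5.1, Picard 1.84 and RSEM 1.2.22 were used with mm10. The authors deposited RSEM expected counts and TPM per gene for each library, and a table of TMM-scaled CPM (a normalized signal) for filtered genes. Counts were read from the deposited merged count table, which equals the per-library count files (largest difference 0), and the RPKM table was not used. Expected counts (11.3% of non-zero values were not whole) were rounded, genes were filtered by filterByExpr, and edgeR 4.0.16 quasi-likelihood tests (R 4.3.3) with TMM scaling were run in each experiment, and over all 30 libraries for contrasts between experiments. P-values were Benjamini-Hochberg adjusted over all genes tested, with a threshold of 0.05. CPM in the text are these TMM-scaled values, and SE are those of edgeR log2 fold changes. Ratios used log2 of counts plus 0.5 and exact permutation. Alternatives used DESeq2 1.42.0, limma 3.58.1 (on the authors' CPM, pseudocount 1) and other settings given at the end. Scripts were tested on simulated data. Groups and replicates followed the labels, which name separate animals.

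The 9 genes, the pathway list, the marker lists and the rule for named genes were chosen with earlier results of these data known. Named were, beside the 9 genes and Cebpa, up to 3 genes per role and experiment with the largest change among those called with a mean of at least 1 CPM in a genotype, and the gene most correlated with each of the 9. Genes called in all 3 experiments were named after their values were seen. Promoter sequences came from RefSeq. Libraries of 7996128 to 10257366 counts limit precision for genes near 1 CPM.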

Additional observations from a re-analysis of the deposited data

Results flagged for a closer look

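In 3 of 66 groups of 5 mice, 1 mouse stood apart from the rest by Dixon's test at its critical value of 0.71, where chance alone gives about 1 group in 20. Mat2a was at 27.5 CPM in HFCFD8W+T10D knockout replicate 4, below the other knockouts (51.4 to 58.9). Cbs was at 125 CPM in HFCFD8W+T10D knockout replicate 3, below the others (161 to 175). Nnmt was at 14.2 CPM in HFCFD12W+T10W knockout replicate 1, below the others (34.0 to 38.1).

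The genotype effect differed between experiments by the joint edgeR test in 11 cases. Against HFCFD2W, the effect in HFCFD8W+T10D differed by 0.95 for Pemt and -0.73 for Ahcy on the log2 scale. Against HFCFD8W+T10D, the effect in HFCFD12W+T10W differed by -0.65 for Gnmt, -0.68 for Shmt1 and -0.83 for Ahcy. Against HFCFD2W, the effect in HFCFD12W+T10W differed by 0.78 for Pemt, -0.69 for Gnmt, -0.59 for Shmt1, -1.56 for Ahcy, -0.87 for Mat1a and -0.64 for Mat2a. Cre strain, diet length and tamoxifen differ between HFCFD2W and the others and cannot be told apart.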

How the results depend on the processing

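Scaling by library totals alone was chosen after seeing the data. With it, the counts outside the 9 genes became 17 higher in HFCFD8W+T10D and 33 higher and 21 lower in HFCFD12W+T10W, the lower differences between HFCFD12W+T10W and HFCFD2W became 1, and the Cebpa fl/fl counts became 3 lower (HFCFD8W+T10D against HFCFD2W) and 1 higher (HFCFD12W+T10W against HFCFD8W+T10D). Signs turned with it for Gnmt in HFCFD8W+T10D (0.076), Pemt (0.31), Ahcyl1 (0.14) and Mmadhc (0.055) in HFCFD12W+T10W, the HFCFD8W+T10D minus HFCFD2W effects of Gnmt (0.10), the HFCFD12W+T10W minus HFCFD8W+T10D effects of Mat2a (0.14) and Pemt (0.086), the HFCFD12W+T10W minus HFCFD2W effect of Cbs (0.26) and Bhmt in Cebpa fl/fl livers of HFCFD8W+T10D against HFCFD2W (0.0034). Upper quartile scaling turned Pemt in HFCFD12W+T10W (0.019), Gnmt (0.0070), Mat2a (0.020) and Cbs (0.017) in these contrasts and Pemt in Cebpa fl/fl livers of HFCFD12W+T10W against HFCFD8W+T10D (-0.0074, with 1 gene higher there, also with no filter). It moved the share of higher genes among those called from 39.6% to 52.6%, 47.5% to 66.5% and 43.6% to 61.6% in the 3 contrasts of effects and from 55.2% to 45.0% in that last one. Shmt1 in HFCFD8W+T10D was at -0.013 with no filter, -0.0084 with RLE, -0.018 with DESeq2, -0.018 with limma and -0.012 in the joint fit, and Pemt at -0.013 with limma, none of them called. In HFCFD2W, of the 9 genes 1 was higher with limma, the joint fit and p under 0.01, 0 with a fold over 2, and 2 (p under 0.01) and 1 (fold over 2) were lower. In HFCFD8W+T10D 1 was lower with a fold over 2, and in HFCFD12W+T10W 0 were higher in the joint fit and with a fold over 2. Outside the 9 genes, p under 0.01 gave 2 higher in HFCFD2W and 1 higher and 4 lower in HFCFD8W+T10D, a fold over 2 gave 1 and 2, 0 and 2, and 3 and 4 higher and lower genes in the 3 experiments, and the joint fit 13 higher in HFCFD8W+T10D. For differences between experiments, p under 0.01 left 0 and 0 (HFCFD8W+T10D against HFCFD2W), 0 and 3 (HFCFD12W+T10W against HFCFD2W), and 0 and 0 higher in the Cebpa fl/fl contrasts, where DESeq2 and the robust fit gave 1 higher for the first. With the replicate block, 1 of the 9 genes was higher and 2 lower in HFCFD2W and 1 other pathway gene higher. Mat1a (-0.50), Bhmt (0.35) and Nnmt (-2.04) lost their calls there, as did Mat1a in HFCFD8W+T10D (-0.78). Named pathway genes that lost their HFCFD2W calls in that fit were Odc1, Apip, Cth, Etnk1, As3mt, Hnmt, Tpmt, Folr2, Slc19a1, Dld and Nampt (edgeR adjusted p = 0.061 to 0.244). Same-numbered mice did not deviate together (correlations -0.327 to 0.0423, -0.0699 to 0.162 and -0.0474 to 0.216), but this cannot show whether the numbers pair mice. With 1 mouse left out, HFCFD2W counts ranged over 1 to 3 higher and 2 to 3 lower of the 9 genes and 5 to 11 higher of the other pathway genes. In HFCFD8W+T10D the ranges were 0 to 1 and 3 to 7 higher. Lower differences between HFCFD8W+T10D and HFCFD2W ranged over 1 to 2, and Cebpa fl/fl counts over 0 to 3 and 0 to 2 higher. The ratio differences ranged over -1.39 to -0.97 (Mat1a/Mat2a) and 0.33 to 0.58 (Bhmt/Cbs) in HFCFD8W+T10D and 0.37 to 0.82 (Bhmt/Cbs) in HFCFD12W+T10W. Signs changed within the ranges of Gnmt in HFCFD2W (-0.12 to 0.036), Gnmt (-0.26 to 0.011), Pemt (-0.067 to 0.24) and Shmt1 (-0.078 to 0.063) in HFCFD8W+T10D, Pemt in HFCFD12W+T10W (-0.17 to 0.022), the effect differences of Gnmt (-0.22 to 0.060) and Nnmt (-1.43 to 0.24) for HFCFD8W+T10D against HFCFD2W, Mat2a (-0.21 to 0.048) for HFCFD12W+T10W against HFCFD8W+T10D, Cbs (-0.21 to 0.049) and Nnmt (-0.18 to 1.11) for HFCFD12W+T10W against HFCFD2W, and Pemt (-0.087 to 0.12) and Shmt1 (-0.034 to 0.089) in Cebpa fl/fl livers of the tamoxifen experiments, none of which was called. Beyond the settings' own construction the cause was not tested.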
